A study of Mus musculus with 6 samples.

Results

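The genes described here are 10 circadian clock genes in wound tissue of diabetic mice: Per1, Per2, Per3, Cry1, Cry2, Nr1d1, Nr1d2, Dbp, Tef and Npas2. They were picked by name, with earlier results of these data known, from the 33184 genes of the deposited FPKM table. FPKM counts fragments per kilobase of transcript, scaled to the depth of the library. All 10 were present and passed the filter on low values that left 16005 genes for testing. The 6 RNA-seq libraries came from round, full-thickness skin wounds of 6 mm in db/db mice, a line with a defective leptin receptor that becomes obese and diabetic. At dpi1 (1 day post-injury) the wound edge was injected with either NC siRNA, a control, or siRNA against SFRP2, and the tissue was taken at dpi4, although the sample titles carry D3. Each group had 3 libraries, and every animal was db/db, so the comparison holds no non-diabetic and no uninjured tissue. The treated titles count siRNA-1 to siRNA-3, which are also the names of 3 different SFRP2 siRNA sequences in the study's supplement. Whether each treated wound received a different sequence is not stated. The age and sex of the mice and the hour of collection are not given in the sources used here. Nothing in the labels says that the libraries of a group came from separate animals, so the p-values measure only the spread between these libraries.

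The circadian clock is a loop of transcription and repression that runs in nearly every cell, skin cells included. A heterodimer of BMAL1 (gene Arntl) with CLOCK or its paralog NPAS2 binds E-box sequences and switches on the Per and Cry genes, whose proteins then return to the nucleus and block that heterodimer. In a second loop the same heterodimer drives Nr1d1 and Nr1d2, which encode the heme-binding nuclear receptors REV-ERBα and REV-ERBβ. These compete with the ROR receptors at ROR elements and repress Arntl, Npas2 and, in part, Cry1. Dbp and Tef encode PAR bZIP transcription factors, which carry the rhythm to output genes through D-box sequences. In mouse peripheral tissues Dbp, Nr1d1, Nr1d2, Tef and the Per genes peak in the later part of the day or around dusk, and Npas2 and Arntl peak around dawn. Cry1 is late in the cycle and was placed here with the morning genes, and Cry2 was assigned to neither phase.

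The promoters are shown because these short sequences are what ties the members into a common loop. RefSeq promoter windows (build GRCm38.p6) were matched by symbol for 9 of the 10 genes, all but Per2. The 250 bases before each annotated start were searched on both strands for the E-box CACGTG, the E'-box AACGTG, the D-box TTATGTAA, TTACGTAA or TTACATAA, and the ROR element TAGGTCA. An E-box was found in 3 members, an E'-box in 3 and a D-box in 1, and 6 of the 9 held at least 1 of these motifs. The ROR element was found in 0 of the 9. Among 32851 RefSeq promoters, 6.02% held the E-box, 3.85% the E'-box, 0.931% the D-box and 2.23% the ROR element. These shares are per promoter, while the members were counted per gene, and Per1 and Tef had more than 1 window. No share of all promoters with at least 1 of the motifs is given, so the 6 of 9 has no background beside it. Each line gives the stretch that holds the motif, with 20 flanking bases, read 5′ to 3′ on the strand of the gene, with the motif in capitals.
Per1 (E-box, chr11:69098763-69098808, + strand): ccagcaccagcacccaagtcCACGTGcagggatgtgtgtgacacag
Cry1 (E'-box then E-box, chr10:85185089-85185153, - strand): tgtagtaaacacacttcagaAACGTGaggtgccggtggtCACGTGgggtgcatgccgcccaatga
Tef (E-box, chr15:81802526-81802571, + strand): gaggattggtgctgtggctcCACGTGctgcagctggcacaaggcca
Cry2 (E'-box, chr2:92434210-92434255, - strand): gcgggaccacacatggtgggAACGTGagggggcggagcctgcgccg
Nr1d1 (E'-box, chr11:98775380-98775425, - strand): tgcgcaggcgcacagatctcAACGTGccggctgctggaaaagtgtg
Per3 (D-box, 2 copies, chr4:151044796-151044890, - strand): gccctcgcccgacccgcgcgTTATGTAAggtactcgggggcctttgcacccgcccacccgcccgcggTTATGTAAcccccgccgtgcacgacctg

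All 6 stretches lie upstream of the RefSeq transcription start. The E-boxes began 166 bases before the start in Per1, 60 in Cry1 and 127 in Tef. The E'-boxes began 79 bases before the start in Cry1, 166 in Cry2 and 28 in Nr1d1, and the D-boxes of Per3 began 205 and 158 bases before it. A second annotated start of Tef had its own E-box 138 bases upstream, and a second one of Per1 had none of the motifs. The windows of Nr1d2, Dbp and Npas2 held none of these letters, and elements further away or within the gene were not searched. The promoter match is a description of sequence, and no binding was measured.

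The FPKM values implied totals of 42.9 M to 47.1 M reads per library. The transcript of the siRNA target went against its label, so "treated" and SFRP2-siRNA 1, 2 and 3 stand for what libraries are labelled, not for a knockdown measured in these libraries. The study reports less SFRP2 protein by staining of wound tissue after the siRNA. Sfrp2 was at 11.6, 40.6 and 14.1 FPKM in NC 1, 2 and 3, and at 50.6, 54.6 and 55.2 FPKM in those labelled SFRP2-siRNA 1, 2 and 3. The transcript was thus 1.45 higher on the log2 scale (SE 0.43), with an exact permutation p of 0.1, the smallest that 3 against 3 libraries allow, and an adjusted limma p of 0.518. A pair of libraries stood apart in other ways. In NC 1 mitochondrial genes took 35.8% of the summed FPKM. This share moved with the groups as well, at 35.8%, 22.2% and 17.4% in NC 1, 2 and 3 against 16.6%, 11.8% and 13.8% in SFRP2-siRNA 1, 2 and 3, without overlap. In the library labelled SFRP2-siRNA 1 the hair follicle markers (9 measured) summed to 23.1 FPKM, against 2351 to 4914 FPKM elsewhere. Keratinocyte markers, which identify skin, summed to 4232 to 7689 FPKM over the 6 libraries, with none of the 12 at 0 in any library. Because bulk tissue was sequenced, fewer cells of a type and less RNA per cell cannot be told apart.

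Over the 6 libraries Per1 had the highest mean level of the 10 genes, 18.0 FPKM, followed by Tef at 16.6, Nr1d1 at 14.6 and Nr1d2 at 9.44 FPKM. Cry2 at 5.69, Cry1 at 5.27, Dbp at 5.19, Per2 at 4.97 and Per3 at 4.14 FPKM formed a middle group. Npas2 was lowest, at 0.641 FPKM. Most neighbours in this order were not separated by their spread. Only the steps from Nr1d2 to Cry2 and from Per3 to Npas2 had ranges that did not overlap, and Cry1 exceeded Dbp in just 3 of the 6 libraries. FPKM is a level per length of transcript, so these levels can be compared between genes, but only roughly. The annotated length need not be that of the transcripts present, and exons of some members overlap other genes, as given below. The reads behind a value ran from 107 for Npas2 in NC 3 to 6785 for Tef in the same library.

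**Figure D1:**
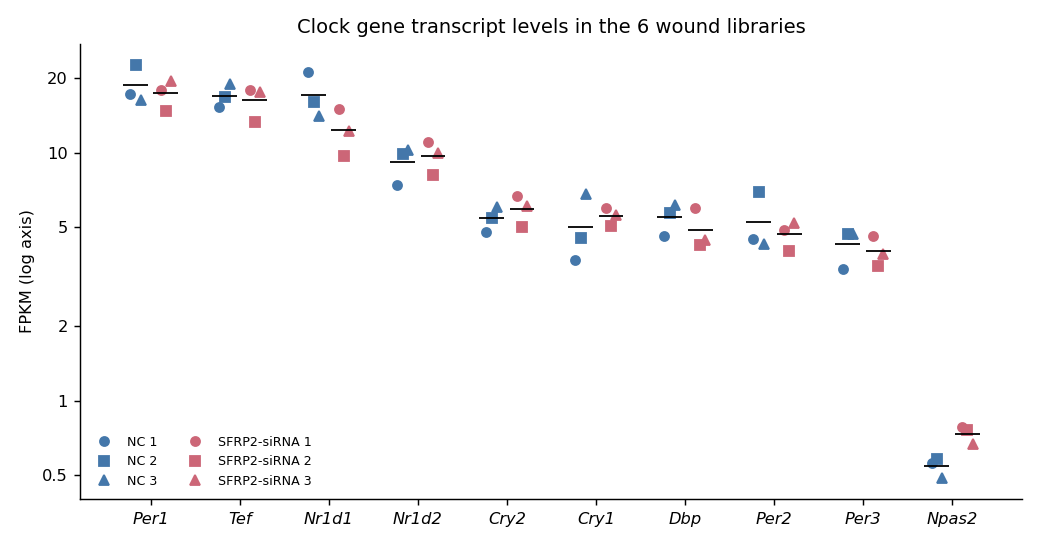
FPKM of the 10 clock genes (log axis) in each of the 6 libraries, NC in blue and SFRP2-siRNA in red, with a horizontal line at each group mean. The groups overlap for 9 genes, and only for Npas2 do the 3 libraries labelled SFRP2-siRNA all lie above the 3 NC libraries.

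The Period genes encode the repressor subunits of the clock whose accumulation sets the timing of the loop. Per1 was at 17.1, 22.6 and 16.2 FPKM in NC 1, 2 and 3, and at 17.8, 14.7 and 19.4 FPKM in those labelled SFRP2-siRNA 1, 2 and 3. The highest and the lowest Per1 value thus came from NC 2 and SFRP2-siRNA 2, and the groups overlapped. Means were 18.7 ± 3.44 and 17.3 ± 2.37 FPKM (SD, n = 3 each), which gave a log2 fold change of -0.10 (SE 0.18) with an adjusted limma p of 0.803.

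Per2, whose loss in mice disrupts the rhythm, ran almost in parallel with Per1. It was at 4.47, 6.96 and 4.27 FPKM in the NC libraries and at 4.90, 4.003 and 5.20 FPKM in those labelled SFRP2-siRNA. NC 2 was again highest and SFRP2-siRNA 2 lowest. The ratio of Per1 to Per2 stayed between 3.25 and 3.83 in the 6 libraries. The log2 fold change was -0.11 (SE 0.19, adjusted limma p 0.796), and its direction turned to 0.08 without NC 2.

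Per3, a further paralog whose loss leaves the core rhythm largely intact, was at 3.39, 4.70 and 4.72 FPKM in the NC libraries and at 4.61, 3.49 and 3.91 FPKM in those labelled SFRP2-siRNA. NC 1 and SFRP2-siRNA 2 were low here and the other 4 libraries were higher, so the Per3 pattern was not that of Per1 and Per2. The log2 fold change was -0.07 (SE 0.16), with an adjusted limma p of 0.844.

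The Cryptochromes are the partners of the PER proteins and the stronger direct repressors of CLOCK and BMAL1. Cry1 was at 3.68, 4.54 and 6.80 FPKM in NC 1, 2 and 3, and at 5.99, 5.05 and 5.59 FPKM in those labelled SFRP2-siRNA 1, 2 and 3. The NC libraries spanned the whole range of Cry1, with the treated libraries inside it. Means were 5.01 ± 1.61 and 5.54 ± 0.472 FPKM (SD, n = 3 each), which gave a log2 fold change of 0.15 (SE 0.20, adjusted limma p 0.726). Leaving out NC 1, where Cry1 was lowest, took this difference to -0.01.

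Cry2 was at 4.80, 5.46 and 6.05 FPKM in the NC libraries and at 6.68, 5.03 and 6.11 FPKM in those labelled SFRP2-siRNA. It varied little, with a highest value 1.39 times the lowest. The log2 fold change was 0.11 (SE 0.14, adjusted limma p 0.737). The ratio of Cry1 to Cry2 lay between 0.766 and 1.12.

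Nr1d1 was the member with the largest spread and the largest difference in either direction. REV-ERBα, its product, links the clock to lipid metabolism and to inflammatory gene expression in macrophages. Nr1d1 was at 21.0, 16.0 and 14.03 FPKM in NC 1, 2 and 3, and at 14.9, 9.70 and 12.2 FPKM in those labelled SFRP2-siRNA 1, 2 and 3. The groups overlapped only because SFRP2-siRNA 1 lay above NC 3. Means were 17.0045 ± 3.61 and 12.3 ± 2.62 FPKM (SD, n = 3 each), which gave a log2 fold change of -0.44 (SE 0.21, 95% interval -0.94 to 0.06). In limma this gave p = 0.0758 before and 0.523 after adjustment, and the exact permutation p was 0.2. The difference was -0.28 without NC 1, the library with the high mitochondrial share, -0.29 without SFRP2-siRNA 2, and -0.58 without SFRP2-siRNA 1, where the unadjusted limma p was 0.0301.

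Nr1d2 did not follow Nr1d1. Its product REV-ERBβ overlaps with REV-ERBα in function. It was at 7.42, 9.84 and 10.2 FPKM in the NC libraries and at 11.0, 8.15 and 9.97 FPKM in those labelled SFRP2-siRNA, with NC 1 at the bottom where Nr1d1 was at its top. The log2 fold change was 0.08 (SE 0.17, adjusted limma p 0.842). Within a library the ratio of Nr1d1 to Nr1d2, which needs no scaling between libraries, was 2.83, 1.62 and 1.37 in NC 1, 2 and 3, and 1.36, 1.19 and 1.23 in those labelled SFRP2-siRNA 1, 2 and 3. These ratios did not overlap between the groups, with NC 3 just above SFRP2-siRNA 1. Of 11 ratios between clock genes examined, 2 had groups without overlap, and no test was applied to ratios.

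Part of the Nr1d1 transcript lies opposite the thyroid hormone receptor gene Thra: 263 of its 3077 annotated exon bases (8.55%, GENCODE vM21) overlap Thra on the other strand. Whether reads were counted by strand is not stated, so reads from the shared stretch cannot be told apart. Thra was at 12.1, 11.9 and 13.3 FPKM in the NC libraries and at 11.9, 13.8 and 15.1 FPKM in those labelled SFRP2-siRNA, a log2 fold change of 0.12 (SE 0.13). Thra was thus highest in SFRP2-siRNA 3 and 2, where Nr1d1 was lowest.

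Dbp and Tef are the output arm of the clock among these genes. Dbp, usually among the transcripts with the widest daily swing in mouse tissues, was at 4.62, 5.72 and 6.15 FPKM in NC 1, 2 and 3, and at 5.99, 4.24 and 4.45 FPKM in those labelled SFRP2-siRNA 1, 2 and 3. SFRP2-siRNA 1 ranked with the upper NC libraries, and SFRP2-siRNA 2 and 3 lay below all 3 NC libraries. Means were 5.50 ± 0.788 and 4.89 ± 0.958 FPKM (SD, n = 3 each), which gave a log2 fold change of -0.15 (SE 0.17, adjusted limma p 0.691). Of the Dbp exon bases 18.0% overlap Sphk2, a sphingosine kinase gene on the opposite strand, whose log2 fold change was 0.03.

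Tef was at 15.2, 16.7 and 18.8 FPKM in the NC libraries and at 17.9, 13.3 and 17.6 FPKM in those labelled SFRP2-siRNA. SFRP2-siRNA 2 was lowest, and the other treated libraries lay within the NC range. The log2 fold change was -0.06 (SE 0.16, adjusted limma p 0.871). The ratio of Dbp to Tef lay between 0.253 and 0.342. Short opposite-strand overlaps also touched Tef (2.45% of exon bases) and Cry2 (4.67%), and the other 6 members had none.

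Npas2, the activator paralog of Clock, was the only member whose groups did not overlap. It was at 0.563, 0.584 and 0.487 FPKM in NC 1, 2 and 3, and at 0.783, 0.760 and 0.669 FPKM in those labelled SFRP2-siRNA 1, 2 and 3. These values rested on 119, 131 and 107 reads against 161, 165 and 151 reads. Means were 0.545 ± 0.0507 and 0.737 ± 0.0603 FPKM (SD, n = 3 each), and all 3 treated libraries were higher. On the log2(FPKM + 1) scale, which shrinks changes of a gene this low, the difference was 0.17 (SE 0.10), with an exact permutation p of 0.1 and an adjusted limma p of 0.547. With a pseudocount of 0.1 it was 0.38, and from recovered reads with limma voom it was 0.44, with no call in either. Non-overlap in the higher direction was common, at 13.9% of all genes tested against 3.92% in the lower direction and 17.8% in either, so 1 of 10 members is near the background.

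Cell type markers moved between the same groups. The 10 fibroblast markers summed to 924 to 1992 FPKM in the NC libraries and to 2210 to 2311 FPKM in those labelled SFRP2-siRNA. Of the 10, 8 did not overlap between the groups, all higher. Beside this and the marker counts that follow, 13.9% of all genes tested did not overlap in the higher direction and 3.92% in the lower. The 10 macrophage markers summed to 812 to 1363 FPKM and 1503 to 2106 FPKM. Of these, 3 did not overlap, all higher: Lyz2, Itgam and Mertk, named after their values were seen. None of either list was at 0 in any library. The part of these shifts, and of the mitochondrial share, in the Npas2, Nr1d1 and other clock gene values was not tested. The sums of the other 6 marker lists overlapped between the groups, although several lists leaned to a side. All 12 skeletal muscle markers had log2 fold changes above 0 (median 0.66), as did 7 of 8 neutrophil markers (median 0.81), of which Mmp8 did not overlap. All 9 hair follicle markers (median -1.39), 9 of 10 adipocyte markers (median -0.44) and 9 of 12 keratinocyte markers (median -0.20) were below 0, and of these Lor did not overlap. Mmp8 and Lor were named after their values were seen. The 8 endothelial markers had a median of 0.09, near the 0.13 of all genes.

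None of the 10 members was called at an adjusted p under 0.05 with an absolute log2 fold change above 1, where 0% of all genes tested were called by limma, and 0 genes were called by limma voom on recovered reads. The study, with a count model, reports differentially expressed genes in these wounds at the same thresholds. The 0% therefore belongs to the fits made here. At an unadjusted limma p under 0.05 there were 1533 genes. The smallest adjusted p of any gene was 0.518, and the members ranged from 0.523 to 0.871. At that unadjusted threshold 0 of 10 members passed, against 9.58% of all genes (6.72% higher and 2.86% lower). The 95% intervals of all 10 members lay within -1 and 1 on the log2 scale, the widest bounds being -0.94 for Nr1d1 and 0.64 for Cry1. A change of more than 1 on that scale in either direction was thus outside every interval. For Npas2, with an NC mean of 0.545 FPKM, a fall of 1 on the log2(FPKM + 1) scale could not occur. A rise of 1 there is more than a 2-fold change, so the bound says less for this gene. The members varied within a narrow range between libraries. Their highest value was 1.39 to 2.17 times the lowest, with a median of 1.51, against a median of 1.75 over all genes tested. For the 28 other clock genes tested, described below, that median was 1.55, so the narrow range was not particular to the members. Of the members only Nr1d1 exceeded a ratio of 2, as 37.6% of all genes did.

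**Figure D2:**
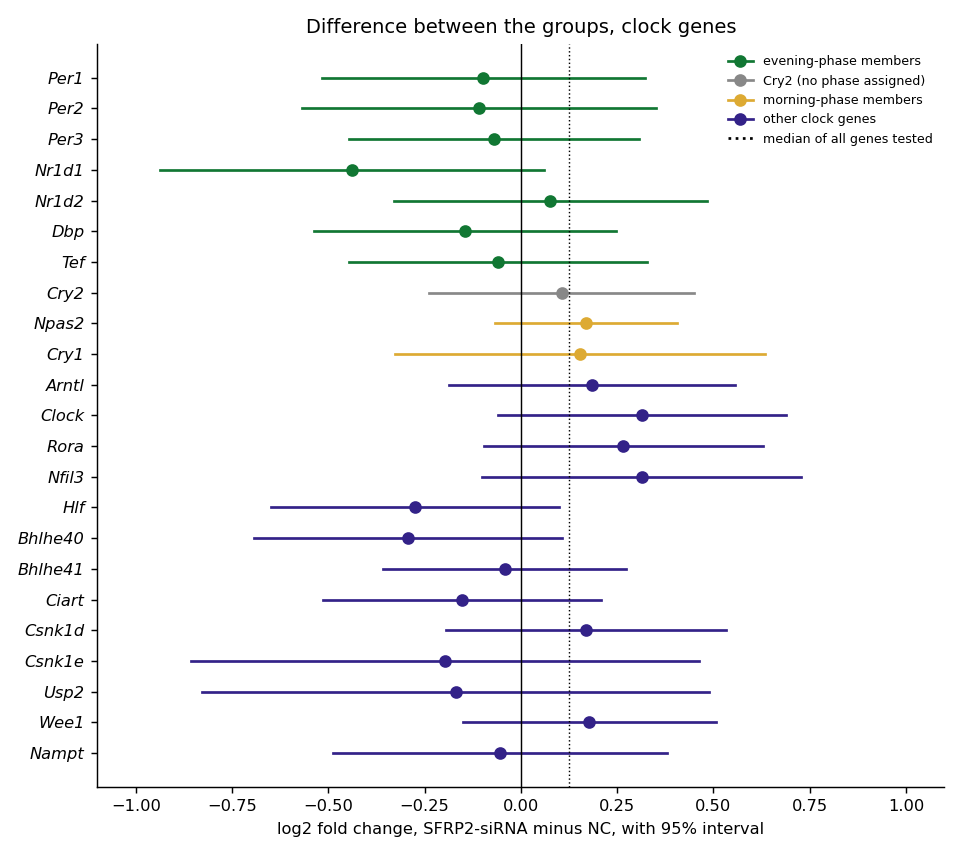
Log2 fold change of the libraries labelled SFRP2-siRNA over NC on the log2(FPKM + 1) scale, with its 95% interval, for the 10 members and 13 other clock genes. Every interval includes 0, and all 7 evening-phase members lie left of the dotted line, the median of all genes tested at 0.13 (6 of 7 would without SFRP2-siRNA 2).

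The evening-phase genes (Per1, Per2, Per3, Nr1d1, Nr1d2, Dbp and Tef) and the morning-phase genes (Npas2 and Cry1) lay on different sides of the median of all genes in the fit as reported, but not under every alternative, and without any of them passing the test. The log2 fold change over all genes tested had a median of 0.13, with 11491 above 0 and 4514 below. Against it, the median of the 7 evening genes was -0.10, with 6 below 0 and all 7 below the all-gene median (6 of 7 without SFRP2-siRNA 2). Both morning genes were above it, at 0.15 and 0.17. The count of evening genes below 0 depended on the setting. It was 7 with median-of-ratios scaling, 4 with rescaling to equal sums, 4 without NC 2 and 3 without SFRP2-siRNA 2. The all-gene median itself moved from 0.00 to 0.23 between those scalings. Relative to that median, 7 of 7 evening genes lay below it under both scalings, and 6 of 7 without SFRP2-siRNA 2 or with no filter on low values. Of the 2 morning genes, only 1 stayed above the all-gene median with sample weights and when NC 1, NC 2, NC 3 or SFRP2-siRNA 1 was left out, and Cry1 was below 0 without NC 1.

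Mean log2(FPKM + 1) of the evening genes minus that of the morning genes gave 1 value per library. It was 1.82, 1.93 and 1.60 in NC 1, 2 and 3, and 1.60, 1.34 and 1.57 in those labelled SFRP2-siRNA 1, 2 and 3. All 3 NC values lay above the treated values, but NC 3 and SFRP2-siRNA 1 were equal to 2 decimals. The group means were 1.785 ± 0.170 and 1.502 ± 0.143 (SD, n = 3 each), a difference of -0.28, and no test was applied because the genes were chosen with earlier results known. Both parts contributed. The evening mean was 3.37 ± 0.119 in NC and 3.25 ± 0.191 in the treated group, and the morning mean was 1.59 ± 0.168 and 1.75 ± 0.0601. The wounds were collected on 1 day and the hour is not given, so a shift in phase, in the hour of collection or in mean level cannot be told apart.

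**Figure D3:**
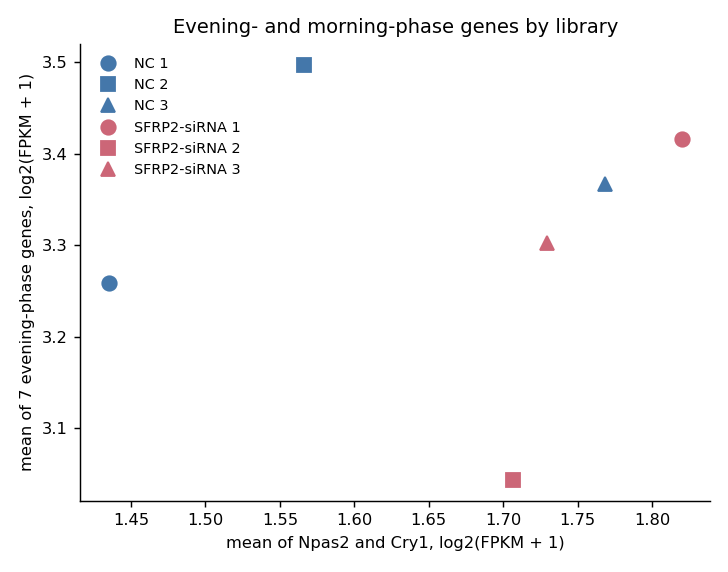
Mean log2(FPKM + 1) of the 7 evening-phase genes against that of the morning-phase genes Npas2 and Cry1, 1 point per library. NC 1 and NC 2 lie to the left with a low morning mean, SFRP2-siRNA 2 lies alone at the bottom with an evening mean of 3.04, and NC 3 lies near SFRP2-siRNA 1 and 3.

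Several deviations were shared by members within a library. SFRP2-siRNA 2 was below the 6-library mean for all 7 evening genes, by 0.27 on the log2 scale on average, and was the lowest library for 5 of them (Per1, Per2, Nr1d1, Dbp and Tef). It was the lowest library for only 7.85% of all genes tested. NC 2 was above the mean for all 7, by 0.18 on average, and held the highest Per1 and Per2. SFRP2-siRNA 1 was also above the log2 mean for all 7, by 0.10 on average, so the treated libraries did not share a direction. Per1 and Per2 lay almost at that mean. Their values of 17.8 and 4.90 FPKM in SFRP2-siRNA 1 were just below the 6-library FPKM means of 18.0 and 4.97. NC 1 was the lowest library for 4 members, Per3, Cry1, Cry2 and Nr1d2, but it was also the lowest for 46.9% of all genes. The other 6 evening genes were below their mean in NC 1 too, and Nr1d1 alone was at its maximum there. NC 3 was the highest library for 4 members and SFRP2-siRNA 1 for 3. Without SFRP2-siRNA 2 the evening minus morning difference was -0.20, and without NC 3 it was -0.38.

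**Figure D4:**
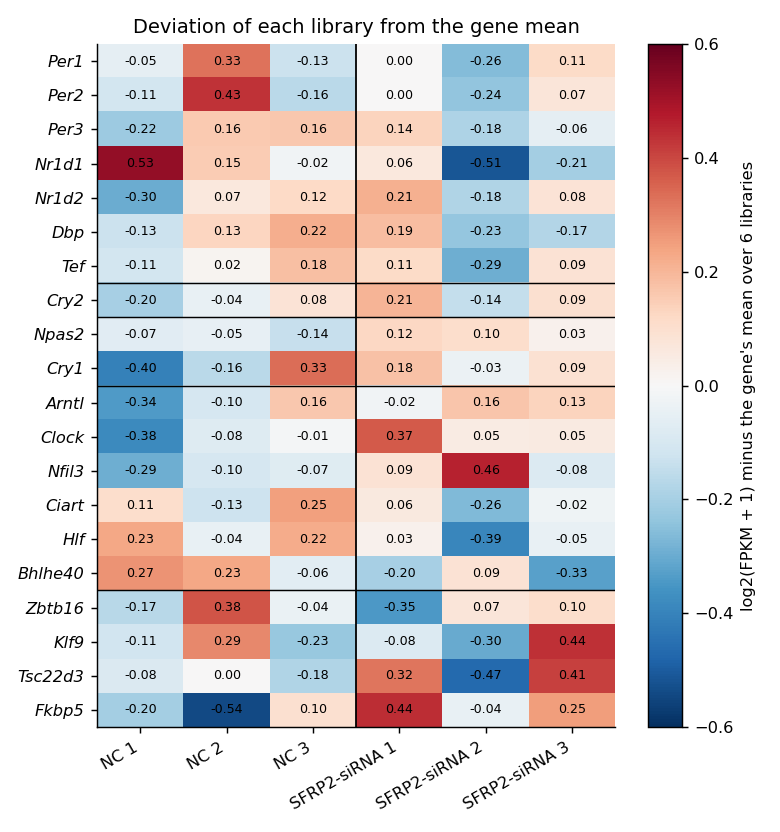
Log2(FPKM + 1) of each library minus the mean of the gene over the 6 libraries, for the 10 members, 6 other clock genes and 4 glucocorticoid-responsive genes. The column of SFRP2-siRNA 2 is blue for all 7 evening-phase members, and that of NC 1 is blue for every member except Nr1d1.

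Of 30 other clock genes listed, 28 passed the filter, and 0 of the 28 reached an unadjusted limma p under 0.05 (9.58% of all genes did). Their median log2 fold change was 0.15, near the 0.13 of all genes, with 18 above 0 and 10 below. Clock, the paralog of Npas2, and Arntl, the partner of both, were at higher mean levels in the treated group without passing the test. Clock was at 2.17, 2.93 and 3.11 FPKM in NC 1, 2 and 3, and at 4.35, 3.29 and 3.30 FPKM in those labelled SFRP2-siRNA 1, 2 and 3. Its groups did not overlap, with a log2 fold change of 0.31 (SE 0.16, adjusted limma p 0.526). The ratio of Npas2 to Clock was 0.205 ± 0.0514 in NC and 0.205 ± 0.0256 in the treated group (SD, n = 3 each), a difference well within its spread. Arntl was at 1.58, 2.05 and 2.65 FPKM and at 2.22, 2.66 and 2.58 FPKM, overlapping, with a log2 fold change of 0.18 (SE 0.16). Timeless, named after its values were seen, was the only other listed gene without overlap, at a log2 fold change of 0.26. Clock and Timeless were thus 2 of 28, both higher, against 13.9% of all genes tested without overlap in that direction. This count was not above the background.

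Genes whose products share D-box, ROR element or E-box sites with the members or their regulators did not pass the test either. Nfil3, whose product represses at the D-boxes that DBP and TEF activate, was at 14.3, 16.5 and 16.9 FPKM in NC 1, 2 and 3, and at 19.0, 24.9 and 16.8 FPKM in those labelled SFRP2-siRNA 1, 2 and 3 (log2 fold change 0.31, SE 0.17). Its highest value fell in SFRP2-siRNA 2, where Dbp was lowest. The ratio of Dbp to Nfil3 was therefore 0.322, 0.346 and 0.364 in the NC libraries and 0.315, 0.170 and 0.265 in the treated libraries, without overlap. Hlf, the remaining PAR bZIP gene, was at -0.27 (SE 0.16). Rora, the activator at ROR elements, was at 0.27 (SE 0.15). The repressors Bhlhe40, Bhlhe41 and Ciart were at -0.29, -0.04 and -0.15.

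The same was true of genes that act on the PER proteins. The casein kinase gene Csnk1d, whose product phosphorylates PER, had a log2 fold change of 0.17 (SE 0.15), and its paralog Csnk1e was at -0.20 (SE 0.28) with SFRP2-siRNA 1 alone low at 7.11 FPKM. Among outputs of the clock, the deubiquitinase gene Usp2 was at -0.17 (SE 0.28), the cell cycle kinase gene Wee1 at 0.18 (SE 0.14) and Nampt, which makes the NAD precursor NMN, at -0.05 (SE 0.18). Intervals of all of these included 0.

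Per1 and Per2 are also direct targets of the glucocorticoid receptor and behave as immediate early genes. Of 9 glucocorticoid-responsive genes listed, 0 reached an unadjusted limma p under 0.05, and their median log2 fold change was 0.04. NC 2 and SFRP2-siRNA 3, the highest pair of libraries for Per1 and Per2, were also the highest pair for Klf9, at 18.1 and 20.2 FPKM, and for Zbtb16, at 7.20 and 5.79 FPKM. This overlap was noticed after the values were seen and held for only 2 of the 9 genes listed. Fkbp5 was lowest in NC 2, at 8.70 FPKM, and Tsc22d3 was highest in SFRP2-siRNA 3 and 1, at 44.5 and 41.8 FPKM. Of 8 immediate early genes, Fos had a log2 fold change of 0.46 (SE 0.30) and Egr1 of -0.41 (SE 0.32), with groups that overlapped. Egr2, named after its values were seen, was the only gene of this list to pass that unadjusted limma threshold, with a log2 fold change of -0.85 and an adjusted limma p of 0.518. That is 1 of 8 genes, near the 9.58% of all genes that passed.

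Dbp and Npas2 were used to look for genes with a like pattern over the 6 libraries, measured as the root mean square difference of centred log2(FPKM + 1) values over 15890 genes with a symbol. The nearest to Dbp were Napepld at 0.055, Heatr5b at 0.056, Gm47666 at 0.057, Oxsm at 0.058 and Klhdc8b at 0.062. Among the members, Per3 was nearest to Dbp, at rank 8 with 0.071, followed by Tef at rank 181 and Nr1d2 at rank 303, while Nr1d1 was at rank 10441. The nearest to Npas2 were Klc4 and Gm14027 at 0.026, Kdelr1 at 0.034, and Sec31a and Gipr at 0.035. Its nearest member, Cry2, was only at rank 4158. The log2(FPKM + 1) scale shrinks the deviations of low genes such as Npas2, so a near gene need not vary by the same proportion. Klc4 ran from 8.78 to 10.5 FPKM, and Npas2 from 0.487 to 0.783 FPKM. The ranks of the members depend on this scale too. With only 6 libraries of the same kind of wound, this likeness is a description and no test was applied.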

How the data were processed

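mRNA of 6 wound libraries was sequenced by the authors as read pairs. Per the labels, HISAT2, Subread and featureCounts were named in the submitters' processing notes, and their versions, the genome build, the annotation and the strand setting are not given in the sources used here. The authors deposited 1 table of FPKM values for 33184 Ensembl genes, of which 32582 were matched to a symbol. The count model that the study names for its own tests cannot be run on FPKM itself, and it was not run on the reads recovered from FPKM. Values were therefore analysed as log2(FPKM + 1) with limma 3.58.1 under R 4.3.3 (lmFit, then eBayes with its trend option), two-sided, for genes averaging 0.5 FPKM or more, with Benjamini-Hochberg adjustment over all 16005. Fold changes on this scale understate the change of low genes. The fit was tested on simulated data. Single values were also compared by an exact permutation test, two-sided.

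With GENCODE vM21 exon lengths, 98.6% to 98.8% of values under 30 reads were whole numbers of reads within 0.02, which gave the read totals. Mates appear to be counted singly, since 64.6% of values from 1 to 20 reads were even, so reads are not independent. Phase groups, lists and the 10 genes were chosen with earlier results of these data known. The genes named were the 10 members, Sfrp2, Thra, 13 other clock genes (a further 2 are not reported here), 4 glucocorticoid and 2 immediate early genes, and the 5 genes nearest in pattern to Dbp and to Npas2; Sphk2 was added as the gene that overlaps Dbp. Alternatives were a pseudocount of 0.1, no filter or a filter at 2 FPKM, 2 scalings, no intensity trend, sample weights, the replicate number as a block, other gene sets for the phase difference, leaving out each library, and limma voom on recovered reads, which was chosen after seeing the data.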

Additional observations from a re-analysis of the deposited data

How the results depend on the processing

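Under 15 alternatives, 0 genes passed the threshold in each, and the members' fits kept their direction in 134 of 149. Among these, no filter, a filter at 2 FPKM, no intensity trend and the replicate block cannot move a member's fold change. Their fits kept direction by construction, so the 134 overstates how far direction was put to the test. At an unadjusted limma p under 0.05, 0 members passed in the reported fit, 2 with estimated sample weights (Nr1d1 and Dbp, with adjusted limma p of 0.265 and 0.334, beside 14% of all genes), and 1 with the replicate block (Nr1d1, adjusted limma p 0.408, beside 12.1% of all genes). Leaving out each library in turn gave 0 to 1, the 1 being Nr1d1 without SFRP2-siRNA 1 (adjusted limma p 0.502, beside 9.2% of all genes). Directions turned in 15 fits of 7 members: with median-of-ratios scaling Cry2 was at -0.034 and Nr1d2 at -0.071; with equal sums Per3 was at 0.0068 and Tef at 0.031; with sample weights Cry2 was at -0.068 and Nr1d2 at -0.15. Over the fits that left out a library, Per1 ran from -0.18 to 0.042, Per2 from -0.22 to 0.080, Per3 from -0.20 to 0.0053, Cry1 from -0.0092 to 0.36, Nr1d2 from -0.053 to 0.19 and Tef from -0.13 to 0.071. The cause of these turns was not tested. Nr1d1 (-0.59 to -0.28), Dbp (-0.32 to -0.07) and Npas2 (0.10 to 0.44) kept their direction in every alternative that gave a value, those that could not turn it included. A filter at 2 FPKM removed Npas2. The evening minus morning difference ran from -0.41 with a pseudocount of 0.1 to -0.20 without SFRP2-siRNA 2. Sfrp2 ran from 1.12 to 1.98 when libraries were left out.

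Libraries with the same replicate number did not all deviate together (correlations of -0.05, -0.15 and 0.38), although the 0.38 of NC 3 with SFRP2-siRNA 3 was the highest of any pairing. The numbers were not taken as pairs. The replicate block cannot change the evening minus morning difference of -0.28, since the mean of paired differences equals the difference of group means. Under the block Nr1d1 passed the unadjusted limma threshold, as given above, and 0 genes were called. With 3 libraries a group, the intervals given leave differences of the sizes they include undecided, and no cycle can be read from a single collection day.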
